A study of Mus musculus with 18 samples.

Results

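Cells of 3 mouse mammary tumors, numbered 1, 2 and 7, had been sorted by their surface levels of CD29, which is integrin beta-1, the product of Itgb1, and of CD24, the product of Cd24a. The comparison described here sets the CD29-high, CD24-low cells (CD29H CD24L) against the CD29-low, CD24-high cells (CD29L CD24H), the opposite corners of that sort. Its members were chosen by array title alone: 3 CD29H CD24L arrays and 3 CD29L CD24H arrays, 6 of the 18 arrays of the series, with each tumor giving 1 array to each side. The same tumors also gave CD29H CD24H and CD29L CD24L arrays, so that 12 tumor arrays entered the fit. Tumors 1 and 2 are labelled as transplantation generation 1, and tumor 7 carries no generation in its label. The normal mammary epithelial cells used for comparison were CD29H CD24P (CD29 high, CD24 positive) and CD29P CD24H (CD29 positive, CD24 high), 2 preparations each. Neither strain, genotype, age nor treatment is given in the labels. The study is known as work on tumors grown from Trp53-null mammary epithelium, a genotype that all tumor groups would then share. Nothing in the labels says how many animals stand behind a tumor, and with 3 tumors a side the number of arrays limits the precision of every value.

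The normal mammary gland is built from an inner layer of luminal cells, which can make milk and sense hormones, and an outer layer of basal or myoepithelial cells, which contract. Luminal cells are usually CD24 high and carry keratins 8 and 18, whereas basal cells are CD29 high and carry keratins 5 and 14. In an epithelial to mesenchymal transition, epithelial cells lose cadherin-based junctions and gain vimentin, N-cadherin and matrix genes under transcription factors such as Zeb1, Snai1 and Twist1. Fibroblasts, the connective tissue cells of the gland, carry many of those same genes without having been epithelial.

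All values are probe-set signals of Affymetrix Mouse430_2 arrays, in the linear units of the authors' scanner software, which had been scaled so that each array's trimmed mean was 500. A difference is CD29H CD24L minus CD29L CD24H in log2(signal + 32), given ± SE, so that changes of dim genes are understated. Each gene was read from its probe set of highest mean, and p-values are limma's, adjusted by Benjamini-Hochberg over 10916 genes, from a fit with the tumor number as a block. A gene was called at an adjusted p under 0.05. Statements that groups do not overlap concern named genes, most of them picked for large called differences. The share of all genes without overlap is not given here, so these statements are description and not further support. Median signals ran from 79.5 to 104 on the 6 arrays. The ratio of the 3' to the 5' actin control probe sets, which rises as RNA is shorter or its amplification more biased to the 3' end, was 56.8 to 77 on the CD29H CD24L arrays and 49.6 to 58.7 on the CD29L CD24H arrays. The same ratio for the Gapdh controls ran from 23 to 32.2 and from 24.2 to 47.9.

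CD29H CD24L cells carried far higher signals of connective tissue genes than CD29L CD24H cells of the same tumor, and few genes went the other way. Of 10916 genes, 447 (4.09%) were called, 420 of them higher (3.85%) and 27 lower (0.247%) in CD29H CD24L cells. All 447 had the same sign in the 3 tumors. The calls came from a fit on these same tumors, which favours such genes, so this agreement is not further support. The difference reached 2 on the log2 scale in 237 of the higher genes and 3 in 90, but in only 2 of the lower ones. Across all genes the median difference was -0.08, and 42.1% were positive. Without the block, 173 genes were called (1.58%), 172 higher and 1 lower. Of the 6 arrays, leaving out the CD29H CD24L array of tumor 2 gave 279 calls, leaving out the CD29L CD24H array of tumor 1 gave 294, and leaving out that of tumor 7 gave 253.

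The direction carried over between tumors. Genes called higher from tumors 2 and 7 alone were positive in tumor 1 in 281 of 284 cases, against 41.9% of all genes. For tumor 2 left out the count was 294 of 296 (46.6% of all genes), and for tumor 7 it was 243 of 256 (48.8%). Of the genes called lower in such fits, 7 of 9, 8 of 9 and 9 of 12 were negative in tumors 1, 2 and 7 when each was left out. Without tumors 1, 2 and 7 in turn the number of calls was 293, 305 and 268.

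**Figure D1:**
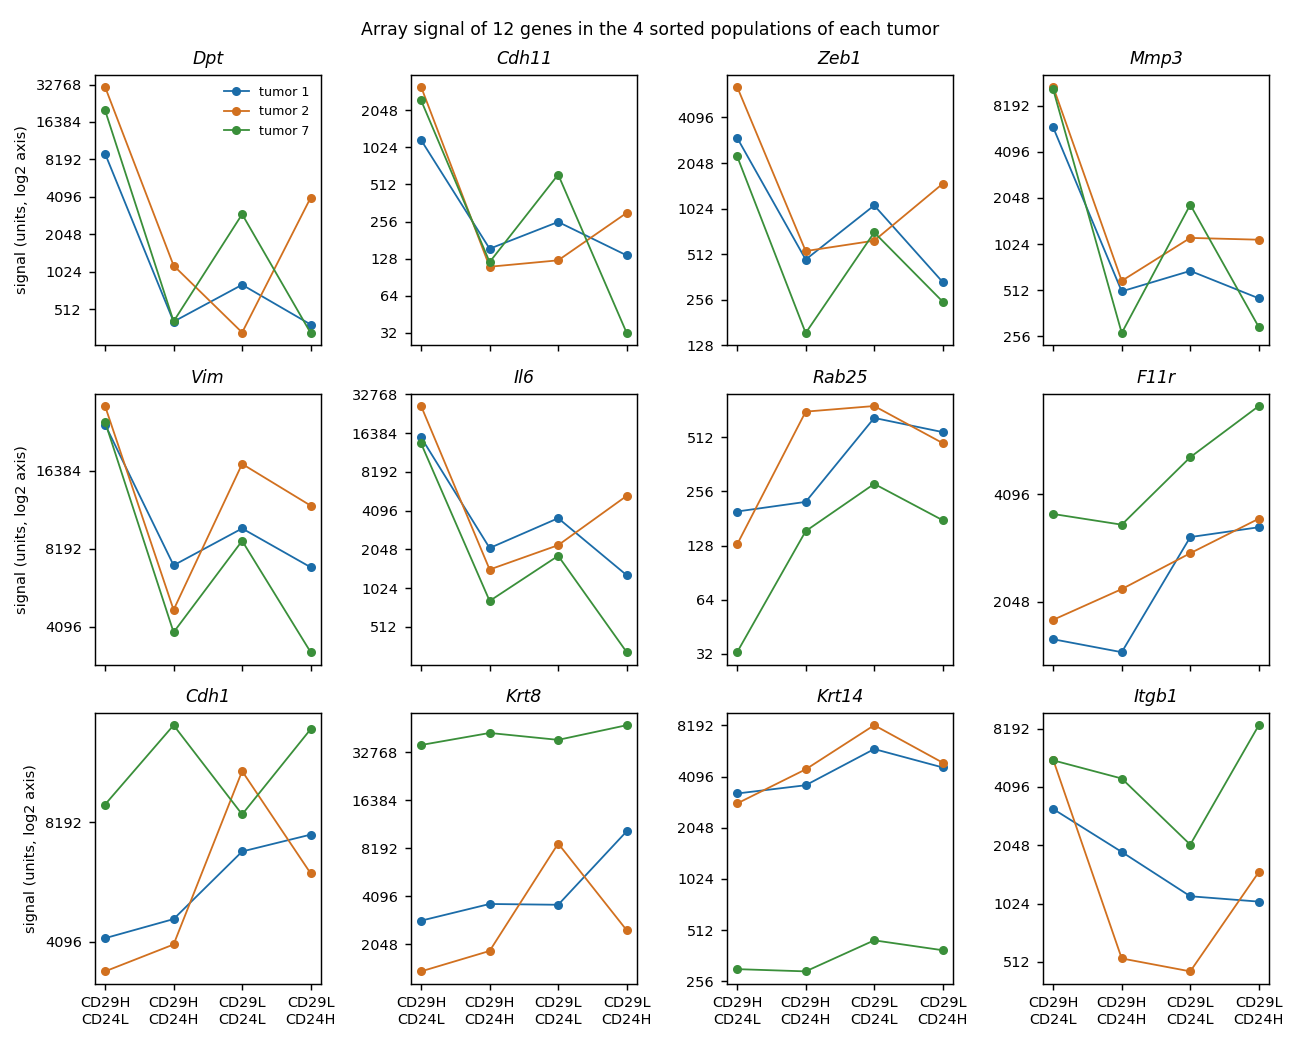
Signal of 12 genes (log2 axis, arbitrary array units) in the 4 sorted populations of each tumor; each point is 1 array and lines join arrays of 1 tumor. Dpt, Cdh11, Mmp3 and Il6 are highest in CD29H CD24L cells of every tumor, while Krt14 is lowest in tumor 7 in every population, and Itgb1 is higher in CD29L CD24H cells only in tumor 7.

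The transcripts of the sort markers themselves were not called. Itgb1 read 3152, 5660 and 5620 units in CD29H CD24L cells of tumors 1, 2 and 7 and 1049, 1490 and 8532 in CD29L CD24H cells. It was thus higher on the CD29-high side in tumors 1 and 2 and lower in tumor 7, with a difference of 0.95 ± 0.51 (adjusted p = 0.461). Cd24a read 34167, 27126 and 41276 units against 37525, 49678 and 48270. Each tumor had the lower Cd24a value in CD29H CD24L cells, but the difference of -0.41 ± 0.27 did not pass the test (adjusted p = 0.582). Surface protein, on which the cells were sorted, was not measured by the arrays.

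The name luminal-like was not settled by the markers. Krt8 read 10455, 2509 and 48254 units in CD29L CD24H cells and 2881, 1387 and 36268 in CD29H CD24L cells. Krt18, its partner in luminal filaments, read 7469, 8043 and 16360 against 2790, 3443 and 13344. Both were higher on the CD29L CD24H side in each tumor, yet neither passed (Krt8 -1.03 ± 0.47, adjusted p = 0.343, and Krt18 -0.97 ± 0.30, adjusted p = 0.107). The basal keratin Krt14 read 4630, 4938 and 390 units in CD29L CD24H cells, also above the 3255, 2845 and 302 of CD29H CD24L cells. Krt5 showed the same order, at 2434, 1227 and 62.3 units against 1777, 1000 and 14.5, with no call for either (adjusted p = 0.412 for Krt14 and 0.572 for Krt5). These keratins therefore did not separate the corners by the test. Krt19, another luminal keratin, differed by 0.14 ± 0.43 and Trp63, a regulator of basal cells, by 0.00 ± 0.34. Other luminal genes lay on the CD29L CD24H side without a call: Cldn3 (-1.67), Elf5 (-1.04), Gata3 (-0.23) and Foxa1 (-0.36). In the simulated data described below, 16.8% of changes of 1 on the log2 scale were recovered. Missing calls for changes of that size therefore do not show equal levels.

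The name mesenchymal-like fits part of the markers only. Vim, the mesenchymal filament vimentin, read 24692, 29100 and 25285 units in CD29H CD24L cells and 6952, 12015 and 3270 in CD29L CD24H cells. These ranges did not overlap, and the difference was 2.01 ± 0.32 (adjusted p = 0.00133). Cdh2, N-cadherin, read 961, 737 and 355 units against 236, 74.2 and 350, nearly equal in tumor 7, and was not called (1.59 ± 0.49, adjusted p = 0.104). The epithelial genes Cdh1 and Epcam stayed bright in CD29H CD24L cells. Cdh1, the epithelial cadherin, read 4176, 3443 and 9088 units there against 7628, 6087 and 14087. Epcam, an epithelial adhesion molecule, read 12088, 7253 and 9408 units against 18966, 14827 and 22170. Neither was called (Cdh1 adjusted p = 0.324, Epcam adjusted p = 0.122). Because the leading genes below are those of fibroblasts and connective tissue matrix, the populations are called here by their gates.

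Fibroblast markers were higher in CD29H CD24L cells almost throughout the list. Of 15 measured members, 14 were called higher and none lower, with a median difference of 3.02 (2.98, 2.29 and 3.68 within tumors 1, 2 and 7); 10 were called without the block. Dpt, dermatopontin, a small matrix protein of connective tissue, read 9122, 31397 and 20363 units against 385, 4034 and 329. Dcn, the collagen-binding proteoglycan decorin, read 21730, 23081 and 26378 units against 1830, 5093 and 543. Pdgfra, the receptor that marks most tissue fibroblasts, read 1973, 3702 and 2289 units against 363, 733 and 207. For each of these genes the lowest CD29H CD24L value was above the highest CD29L CD24H value. The differences were 4.41 ± 0.77 for Dpt (adjusted p = 0.00251), 3.75 ± 0.63 for Dcn (adjusted p = 0.00194) and 2.64 ± 0.34 for Pdgfra (adjusted p = 0.000365). Pi16, a protease-inhibitor family gene of adventitial fibroblasts, differed by 4.10 ± 0.56. The member not called was Col1a1 (1.89 ± 0.55, adjusted p = 0.0752), whose 30839 units in CD29H CD24L cells of tumor 2 stood against 13625 in CD29L CD24H cells of that tumor. Col1a1 had 2 tested probe sets, at 1.89 and 2.6, and 1 of them was called when each was tested by itself.

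Summed over the 16 fibroblast markers on the array, the signal was 174312, 219407 and 173091 units in CD29H CD24L cells and 28512, 92465 and 11202 in CD29L CD24H cells. The CD29L CD24H array of tumor 2 thus had the highest sum on its side, and the fibroblast, interstitial matrix and fibrillar collagen medians were lowest in tumor 2. In such bulk samples, fewer fibroblasts and less RNA per cell cannot be told apart. The sum was higher on the side where the mesenchymal and matrix genes below were called higher, and its part in those differences was not tested. The collagen processing median was 1.75, 1.89 and 1.44 in tumors 1, 2 and 7, and members of that list differed in order. Lox (3.56, 1.67 and 5.16), Loxl1 (2.39, 3.49 and 4.42) and Pcolce (3.1, 2.79 and 5.33) were highest in tumor 7. Loxl3 (2.22, 3.55 and 2.94) was highest in tumor 2.

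**Figure D2:**
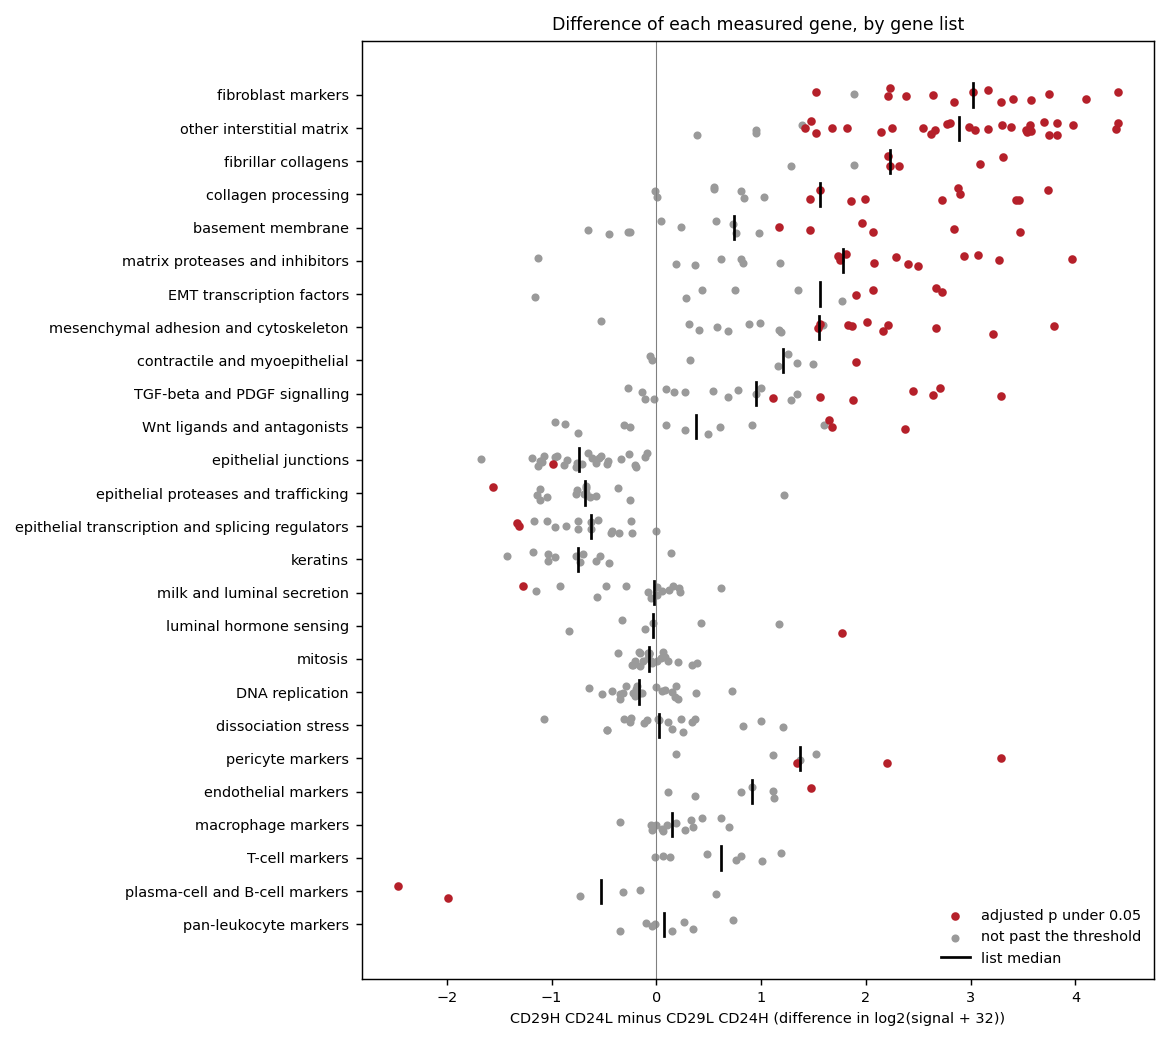
Difference of every measured gene (CD29H CD24L minus CD29L CD24H, in log2(signal + 32)), by gene list; red points are called, grey points are not, and black bars are list medians. Fibroblast and interstitial matrix lists lie to the right, with medians of 3.02 and 2.89, and the epithelial lists lie slightly to the left, with medians from -0.75 to -0.62.

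Genes of the interstitial matrix, the fibres and proteoglycans between connective tissue cells, followed the same pattern. The lists share members and are not independent counts. Dpt, Dcn and Lum are also fibroblast markers, as are Col1a1, Col1a2 and Col3a1 of the fibrillar collagens. Pdgfra and Pdgfrb are also in the TGF-beta and PDGF list, and Pdgfrb is among the pericyte markers too. Among 32 measured members other than fibrillar collagens, 28 were called higher and none lower, with a median difference of 2.89, and 17 were called without the block. Efemp1, a fibulin of elastic fibres, read 11399, 20590 and 13130 units in CD29H CD24L cells against 335, 2998 and 272. Fmod, fibromodulin, which spaces collagen fibrils, read 2597, 3006 and 2119 units against 201, 570 and 11.2. The groups did not overlap for either gene (4.39 ± 0.73 for Efemp1, 3.82 ± 0.55 for Fmod). Ogn, osteoglycin, differed by 3.98 ± 0.62 (adjusted p = 0.00106, and 0.0562 without the block).

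Of 7 measured fibrillar collagen genes, which encode the chains of collagen fibres, 5 were called higher and none lower (median 2.23). Col5a3 read 9682, 13241 and 8591 units against 937, 2400 and 448, a difference of 3.31 ± 0.45 (adjusted p = 0.000451). Col5a1 and Col5a2, further chains of the same collagen, differed by 3.09 ± 0.52 and 2.32 ± 0.44. Col3a1 read 58610, 55392 and 51367 units against 11648, 34735 and 3985. Its groups did not overlap, although the tumor 2 values lay closest (2.23 ± 0.50, adjusted p = 0.0168, and 0.128 without the block). Without the block 3 of the collagen genes were called.

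Collagen processing genes were called higher in 10 of 17 cases and lower in none (median 1.56), and in 7 without the block. Lox, lysyl oxidase, the enzyme that crosslinks collagen and elastin, read 19837, 19262 and 21020 units in CD29H CD24L cells and 1649, 6025 and 557 in CD29L CD24H cells. Its relatives Loxl1 and Loxl3 differed by 3.43 ± 0.40 and 2.90 ± 0.33. Pcolce, which helps remove the ends of procollagen, read 7951, 16966 and 14529 units against 897, 2427 and 330 (3.74 ± 0.52). Values of CD29H CD24L cells lay above all values of CD29L CD24H cells for Lox and for Pcolce.

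Basement membrane genes, which encode the sheet under epithelia, were mixed: 6 of 16 were called higher, none lower, and the median was 0.74. Nid1, nidogen, which links laminin to collagen, read 8648, 14238 and 8103 units against 863, 2137 and 349 (3.47 ± 0.38, adjusted p = 0.000185). Lama2, a laminin chain of muscle and mesenchyme, read 1126, 977 and 886 units against 148, 264 and 22.3 (2.84 ± 0.43). Lamb1 read 15488, 15778 and 10574 units against 1736, 3528 and 5526. Lamb1 and Nid2 were called with the block (2.07 ± 0.53 and 1.96 ± 0.41) and not without it (adjusted p = 0.207 and 0.182). Without the block 2 members of the list were called in all. Lamb1 had 2 tested probe sets, at 1.23 and 2.07, and 1 of them was called when each was tested by itself.

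Matrix proteases and their inhibitors were called higher in 11 of 18 cases and lower in none, with a median of 1.78. Leaving out the block gave 6. Mmp3, stromelysin, which cuts proteoglycans and activates other proteases, read 5906, 10869 and 10450 units in CD29H CD24L cells and 453, 1093 and 294 in CD29L CD24H cells. Mmp2, a gelatinase of stromal cells, read 21292, 27535 and 20829 units against 3075, 3761 and 2287. Every value of CD29H CD24L cells was above every value of CD29L CD24H cells for both genes, with differences of 3.97 ± 0.42 and 2.94 ± 0.35. Mmp23 differed by 3.27 ± 0.46 and the protease inhibitor Timp1 by 3.07 ± 0.45. Mmp10 read 780, 373 and 733 units against 235, 135 and 122 (1.73 ± 0.34, adjusted p = 0.00611, and 0.127 without the block). Mmp13, a collagenase, read 404, 332 and 584 units against 124, 135 and 55.5 (1.81 ± 0.43, adjusted p = 0.0228, and 0.081 without the block).

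The promoters of Mmp3, Mmp10 and Mmp13 are known targets of AP-1, the Jun and Fos factor, and are shown because each holds its site close to the start. The 250 bases before each gene's start in RefSeq (GRCm38.p6) were searched for TGACTCA and its reverse complement TGAGTCA, which do not overlap the other motif searched. The last 150 bases before the start are printed from 5′ to 3′ on the gene's strand, with the motif in capitals. Mmp3 is at chr9:7445672-7445821 (+), Mmp10 at chr9:7502192-7502341 (+) and Mmp13 at chr9:7272364-7272513 (+).
Mmp3: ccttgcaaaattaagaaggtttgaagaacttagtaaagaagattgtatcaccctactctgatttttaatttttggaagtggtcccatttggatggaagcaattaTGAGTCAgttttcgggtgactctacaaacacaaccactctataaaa
Mmp10: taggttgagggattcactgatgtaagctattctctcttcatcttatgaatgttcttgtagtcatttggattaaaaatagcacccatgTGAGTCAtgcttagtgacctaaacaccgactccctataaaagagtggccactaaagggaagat
Mmp13: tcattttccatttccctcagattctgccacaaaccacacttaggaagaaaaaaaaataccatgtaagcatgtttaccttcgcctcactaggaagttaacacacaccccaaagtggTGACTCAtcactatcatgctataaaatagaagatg
The motif was found in 6 of the 13 matrix protease list members with a promoter in the table (46.2%). It was present in 4.46% of all 32851 promoter windows, in 4.24% of the tested genes and in 33 of 310 genes called higher (10.6%). A match is a description of the letters and not evidence of binding.

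Of 10 measured transcription factors of epithelial to mesenchymal transition, 4 were called higher and none lower (median 1.56). Zeb1, a zinc finger repressor of epithelial genes, read 3004, 6528 and 2268 units in CD29H CD24L cells against 334, 1495 and 248. Zeb2, its relative, read 818, 1466 and 1382 units against 106, 672 and 318. Twist2, a helix-loop-helix factor of mesenchyme, read 437, 677 and 419 units against 67.6, 211 and 51.8, and Prrx1, a homeobox factor of mesenchyme, read 3178, 4439 and 3297 against 281, 595 and 911. The groups did not overlap for any of these factors, which were picked because they were called. Differences were 2.73 ± 0.44 for Zeb1, 1.91 ± 0.38 for Zeb2, 2.07 ± 0.35 for Twist2 and 2.67 ± 0.47 for Prrx1 (adjusted p = 0.00139, 0.00758, 0.00182 and 0.00265). Probe sets differed in size: the 3 tested for Zeb1 ran from 0.92 to 2.73 with 1 called, and the 4 for Zeb2 from 0.60 to 2.03 with 2 called. By the mean of its probe sets Zeb1 was at 1.14 (adjusted p = 0.0563) and Zeb2 at 1.20 (adjusted p = 0.0366). Only Twist2 kept its call without the block, where the others had an adjusted p of 0.0604, 0.349 and 0.12. Without tumor 1, or without tumor 7, 2 of the factors were called.

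Among the factors of this list that were not called were Snai1, Twist1 and Snai2. Snai1 read 121, 123 and 222 units in CD29H CD24L cells against 72.4, 38.2 and 140 (0.75 ± 0.38, adjusted p = 0.422). Twist1 read 1188, 765 and 522 units against 1079, 283 and 591 (0.44 ± 0.42, adjusted p = 0.767). Snai2, which is also a factor of normal basal cells, read 17387, 9607 and 2049 units against 7862, 8564 and 99.1 (1.77 ± 0.63, adjusted p = 0.176). The Twist1 ranges overlapped and tumor 7 went the other way.

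Genes of mesenchymal adhesion and the cytoskeleton were called higher in 10 of 20 cases and lower in none (median 1.55), and in 4 without the block. Cdh11, a cadherin of fibroblasts and bone-forming cells, read 1172, 3168 and 2461 units against 136, 301 and 31.9 (3.80 ± 0.58, adjusted p = 0.000932). Fstl1, a secreted glycoprotein, read 33093, 39657 and 41731 units against 4628, 9475 and 1524 (3.21 ± 0.54). Axl, a receptor tyrosine kinase, and the integrin gene Itgb3 differed by 2.67 ± 0.51 and 2.21 ± 0.47 (adjusted p = 0.081 and 0.16 without the block). By the mean of its probe sets Axl was at 1.30 (adjusted p = 0.0656). Contractile genes of myoepithelial and smooth muscle cells gave 1 call among 8, Tagln (1.91 ± 0.45, adjusted p = 0.0235, and 0.145 without the block). Acta2, smooth muscle actin, read 12113, 13315 and 11906 units against 11244, 9129 and 800. It was thus near-equal in tumor 1 and low on the CD29L CD24H array of tumor 7 (adjusted p = 0.289).

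Signals between stroma and epithelium were partly higher too. Of 21 genes of TGF-beta and PDGF signalling, 7 were called higher and none lower (median 0.95), 3 of them without the block. Pdgfrb, the PDGF receptor of pericytes and fibroblasts, read 2940, 2113 and 2330 units against 318, 481 and 58.6 (3.29 ± 0.47). Inhba, which encodes the subunit of activin A, a TGF-beta family ligand, read 6786, 2587 and 3450 units against 812, 639 and 360 (2.71 ± 0.35). Neither gene's groups overlapped. Ltbp2, a microfibril protein of the latent TGF-beta binding family, differed by 2.45 ± 0.36 (adjusted p = 0.000713, and 0.135 without the block). Among 14 Wnt ligands and antagonists, 3 were called higher, and all are secreted antagonists or modulators: Sfrp2 (2.37 ± 0.56), Dkk2 (1.68 ± 0.44) and Dkk3 (1.65 ± 0.38). None of the Wnt genes was called without the block, with adjusted p-values of 0.432 for Sfrp2, 0.198 for Dkk2 and 0.183 for Dkk3.

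Epithelial genes were modestly lower in CD29H CD24L cells, and few passed the test. All 28 measured genes of epithelial junctions had a negative difference (median -0.73), and 1 was called lower, against 0.247% of all genes. That gene, F11r, encodes junctional adhesion molecule A and read 1608, 1823 and 3611 units in CD29H CD24L cells against 3315, 3503 and 7253 (-0.99 ± 0.25, adjusted p = 0.0398, and 0.318 by the mean of its probe sets). Its groups overlapped across tumors, although CD29H CD24L cells were lower within each. Cldn7, a tight junction claudin, read 5398, 1264 and 13306 units against 14355, 2207 and 30382, and was not called (adjusted p = 0.165). Across all genes 42.1% were positive, so part of a small negative median is shared with the whole array. The median within tumors 1, 2 and 7 was -1.13, -0.91 and -0.27 for junction genes.

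Among 16 epithelial proteases and trafficking genes 15 were negative and 1 was called, Rab25, a small GTPase of epithelial recycling endosomes. It read 198, 130 and 32.7 units against 547, 475 and 177 (-1.56 ± 0.36, adjusted p = 0.019). Of 17 epithelial transcription and splicing regulators, 2 were called lower. Over all genes 0.247% were called lower and 42.1% were positive. Grhl3, a grainyhead factor of barrier epithelia, read 488, 434 and 56.6 units against 1603, 713 and 250 (-1.33 ± 0.30), and Tfcp2l1, a related factor, read 281, 576 and 124 against 1430, 1197 and 222 (-1.31 ± 0.33). Each of these genes was lower in CD29H CD24L cells of all 3 tumors, while the ranges over tumors overlapped for each because tumor 7 was dim on both sides. Without the block none was called, with adjusted p-values of 0.577 for Rab25, 1 for Grhl3, 0.967 for Tfcp2l1 and 0.761 for F11r. No keratin of 12 was called (median -0.75), and the largest difference was that of Krt15 (-1.43 ± 0.46, adjusted p = 0.118).

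Zeb and Snail family repressors are known to bind the E-box letters CAGGTG, whose reverse complement is CACCTG. The promoters of the 4 called epithelial genes are therefore shown, cut and oriented as for the matrix proteases, with these letters in capitals. Rab25 is at chr3:88548280-88548429 (-), Grhl3 at chr4:135573633-135573782 (-), F11r at chr1:171437411-171437560 (+) and Tfcp2l1 at chr1:118627795-118627944 (+), all in GRCm38.p6 from RefSeq.
Rab25: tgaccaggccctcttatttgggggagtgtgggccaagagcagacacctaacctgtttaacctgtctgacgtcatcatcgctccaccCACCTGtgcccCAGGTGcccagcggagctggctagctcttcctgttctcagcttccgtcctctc
Grhl3: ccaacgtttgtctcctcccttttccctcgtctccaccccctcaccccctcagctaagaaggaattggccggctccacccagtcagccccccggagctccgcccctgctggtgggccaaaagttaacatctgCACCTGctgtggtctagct
F11r: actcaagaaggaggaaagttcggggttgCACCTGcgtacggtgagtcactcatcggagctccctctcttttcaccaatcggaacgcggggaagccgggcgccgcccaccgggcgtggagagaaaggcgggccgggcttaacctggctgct
Tfcp2l1: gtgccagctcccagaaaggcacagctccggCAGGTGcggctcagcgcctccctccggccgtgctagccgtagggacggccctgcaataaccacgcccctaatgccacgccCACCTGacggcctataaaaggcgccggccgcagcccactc
All 4 held the letters in their 250-base windows, with 2 matches in Rab25 and in Tfcp2l1. Across the 3 epithelial lists 21 of 33 genes with a promoter in the table did (63.6%), called or not. The share was 17.2% of all 32851 windows, 18.2% of the tested genes, 13.9% of genes called higher and 8 of 20 genes called lower (40%). These letters say nothing here about which factor, if any, was bound.

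Genes of luminal function were called in isolated cases. Among 7 genes of luminal hormone sensing, Esr1, the oestrogen receptor, was called higher in CD29H CD24L cells (877, 716 and 445 units against 383, 174 and 62.9, a difference of 1.77 ± 0.36, adjusted p = 0.00742, and 0.362 without the block). By the mean of its probe sets Esr1 was at 1.14 (adjusted p = 0.149). Of 16 milk and luminal secretion genes, Kit, a receptor of luminal progenitors, was called lower (2318, 871 and 500 units against 4028, 2452 and 1542, a difference of -1.27 ± 0.27, adjusted p = 0.0118, and 0.945 without the block). The Esr1 groups did not overlap, and the Kit groups did, although each tumor had the lower Kit value in CD29H CD24L cells. The medians of these lists were -0.03 and -0.02. Among all genes 3.85% were called higher and 0.247% lower. Kit had 2 tested probe sets, at -1.27 and -0.64, and 1 of them was called when each was tested by itself.

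No gene of cell division was called. None of 23 mitosis genes and none of 22 DNA replication genes passed (medians -0.07 and -0.17). Top2a, a topoisomerase of dividing cells, read 4432, 4528 and 3208 units against 3536, 4794 and 1680, with overlapping groups (0.39 ± 0.31). Aurka, a mitotic kinase, differed by -0.37 ± 0.30, Pola1, a polymerase subunit, by 0.72 ± 0.30, and Pole, another, by -0.64 ± 0.34. Dissociation stress genes, which can rise while tissue is digested into cells, gave no call among 19. Atf3 and Egr2 had the smallest p-values there, at -1.07 ± 0.34 and 1.21 ± 0.40 (adjusted p = 0.112 and 0.138).

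**Figure D3:**
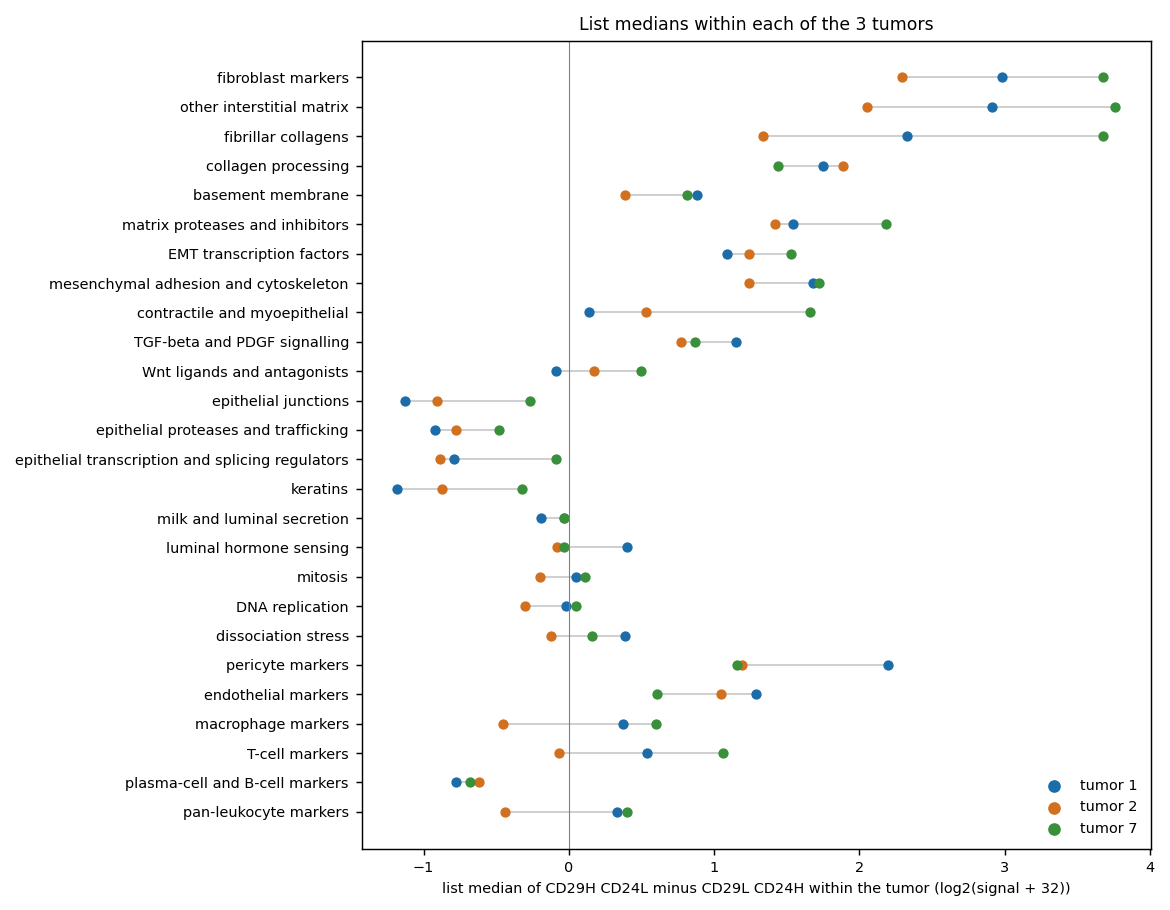
List medians of the difference within each tumor (log2(signal + 32)), with a line over the range of the 3 tumors. The fibroblast list lies at 2.98, 2.29 and 3.68 in tumors 1, 2 and 7, and the junction list at -1.13, -0.91 and -0.27.

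Markers of other cell types that a sort gate could hold were examined in the same way. Of 7 measured pericyte markers 3 were called higher: Pdgfrb, Rgs5, a regulator of G-protein signalling (2.20 ± 0.34), and Cspg4, the NG2 proteoglycan (1.34 ± 0.31). The last of these and Rgs5 missed the threshold without the block (adjusted p = 0.0904 and 0.0543). Summed over the list, CD29H CD24L arrays read 9025 to 17648 units and CD29L CD24H arrays 2362 to 5624. Among 7 measured endothelial markers Cldn5 was called (1.48 ± 0.35, adjusted p = 0.0256, and 0.453 without the block), and the sums were 1729 to 6271 against 1018 to 2865 units. Pecam1, a defining endothelial gene, read 14.8 to 41.5 units against 9.8 to 25.2 and lay below the filter on low values. The part of pericytes and endothelial cells in the differences was not tested.

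Leukocyte markers gave no call apart from genes of plasma cells. None of 14 macrophage, 3 neutrophil, 8 T-cell and 8 pan-leukocyte markers was called. Macrophage markers summed to 39999 to 68206 units in CD29H CD24L cells and 26299 to 91783 in CD29L CD24H cells, with the highest sum on the CD29L CD24H array of tumor 2. Ptprc, the pan-leukocyte surface protein CD45, read 625, 1791 and 522 units against 323, 1874 and 538 (0.26 ± 0.45), and Laptm5, a lysosomal protein of blood cells, differed by 0.35 ± 0.40. The plasma cell genes Jchain and Igha, of the antibody joining chain and the IgA heavy chain, were called lower in CD29H CD24L cells, 2 of 6 measured members. Jchain read 45.7, 130 and 44.1 units against 375, 1230 and 285 (-2.47 ± 0.51, adjusted p = 0.00876, and 0.182 without the block), and Igha read 77.6 to 226 units against 777, 874 and 358 (-1.99 ± 0.44, adjusted p = 0.0155, and 0.19 without the block). Neither gene's groups overlapped. Another member, Ighm, the IgM heavy chain, was at 0.57 ± 0.46. The share called lower over all genes was 0.247%. In normal cells Jchain read 785 and 657 units in CD29H CD24P and 5537 and 9828 in CD29P CD24H cells, the latter above every tumor array. Of the remaining lists, 5 genes of MHC class II gave no call (H2-Eb1 -0.47 ± 0.46), nor did the 3 measured nerve sheath and muscle markers (Sox10 -0.42 ± 0.41). The single measured adipocyte marker was Fabp4 (1.05 ± 0.49, adjusted p = 0.377), and no erythroid marker was above the filter. Fabp4 had 2 tested probe sets, at 1.05 and 1.19, and 1 of them was called when each was tested by itself.

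**Figure D4:**
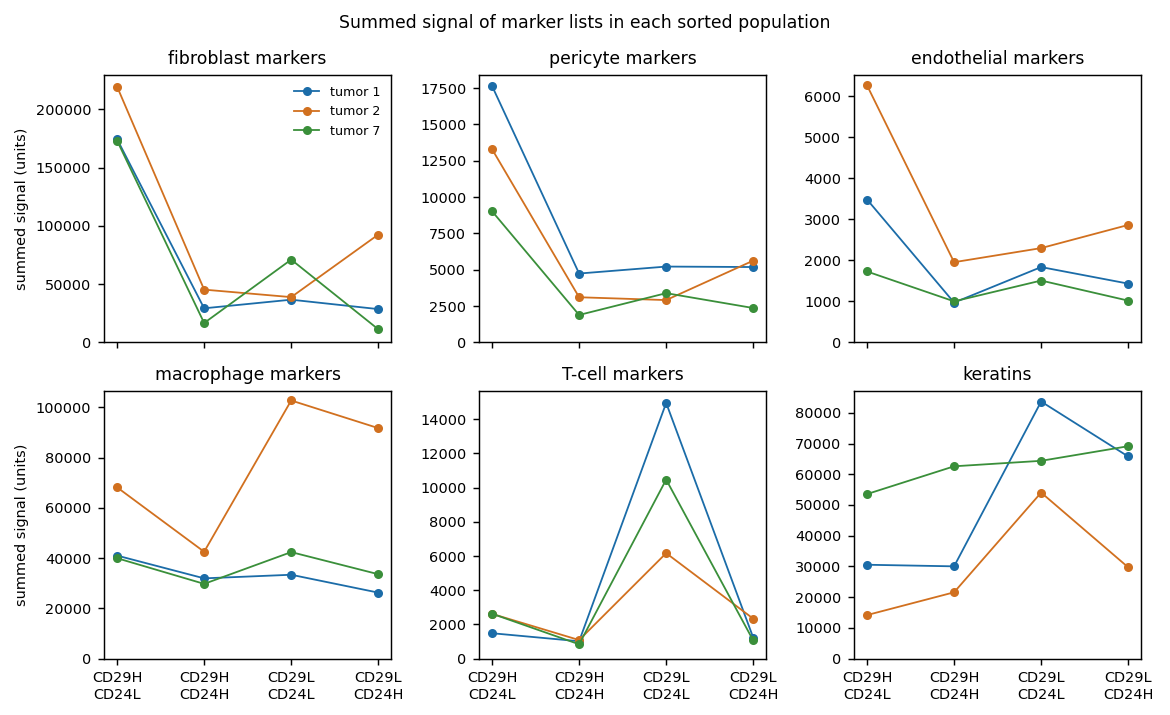
Signal summed over marker lists (array units, linear axis from 0) in the 4 sorted populations of each tumor, 1 point per array. The fibroblast sum is 173091 to 219407 in CD29H CD24L cells and 11202 to 92465 in CD29L CD24H cells, while T-cell markers peak in CD29L CD24L cells and the macrophage sum is highest in tumor 2.

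The 15 largest positive differences ran from 3.76 to 4.41. They included, besides genes above, Itm2a, a membrane protein (4.16 ± 0.62), Tnxb, tenascin X (3.96 ± 0.70), Ptgis, prostacyclin synthase (3.92 ± 0.55), Aspn, asporin, a collagen-binding proteoglycan (3.82 ± 0.51), Rarres2, the adipokine chemerin (3.78 ± 0.67), and Bicc1, an RNA-binding protein (3.77 ± 0.40). Ndn, necdin, an imprinted growth regulator, and Thbs4, a thrombospondin, differed by 3.76 ± 0.55 and 3.76 ± 0.51. Itm2a read 8350, 13659 and 14347 units against 672, 2071 and 162. Rarres2 and Thbs4 missed the threshold without the block (adjusted p = 0.0678 and 0.148). Rarres2 had 2 tested probe sets, at 1.88 and 3.78, and 1 of them was called when each was tested by itself.

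The 15 largest negative differences ran from -2.47 to -1.34 and mostly came from dim probe sets. Besides Jchain, Igha, Rab25 and Grhl3 they were Neat1 (-2.06 ± 0.40), Apbb3 (-1.82 ± 0.39), Fancm (-1.77 ± 0.45), Ess2 (-1.76 ± 0.38), Hid1 (-1.67 ± 0.41), 5430405H02Rik (-1.59 ± 0.37), H3f3a and Bhlha15 (-1.46 ± 0.29 and -1.46 ± 0.35), Gm13648 (-1.39 ± 0.37), Dcaf4 (-1.38 ± 0.37) and Smim22 (-1.34 ± 0.34). Bhlha15, a factor of secretory and plasma cells, read 10.4, 19.7 and 292 units against 141, 101 and 613. Ess2 read 17.2, 51.4 and 22 units against 141, 170 and 212, and was the single lower gene called without the block (adjusted p = 0.0456). H3f3a was represented here by a probe set of 84.4 to 691 units over the 6 arrays. Hid1 had 2 tested probe sets, at -1.67 and -0.75, and 1 of them was called when each was tested by itself.

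By counts of called genes, CD29H CD24L cells stood apart from the intermediate populations, mostly through higher genes. The comparisons below share arrays with the one above and are set side by side with it, not counted as further support. CD29H CD24L cells differed from CD29H CD24H cells in 538 genes (4.93%), 504 higher (4.62%) and 34 lower, and from CD29L CD24L cells in 483 genes (4.42%), 414 higher (3.79%) and 69 lower. CD29L CD24H cells differed from CD29H CD24H cells in 1 gene (0.00916%), the nuclear RNA Malat1, and in 889 genes at an unadjusted p under 0.05. From CD29L CD24L cells they differed in 10 genes (0.0916%). Without the block these counts were 237, 124, 0 and 2. Fibroblast markers were called higher in 15 of 15 cases against CD29H CD24H cells and in 13 of 15 against CD29L CD24L cells, with medians of 3.53 and 2.83, and without the block in 12 and 5. Between CD29L CD24H and CD29H CD24H cells no member of any list was called, and the fibroblast median was 0.40. Genes lower in CD29H CD24L cells did not share 1 order. CD29H CD24L minus CD29H CD24H was -0.02 for F11r, -0.01 for Jchain and -0.19 for the junction median. For CD29L CD24H minus CD29H CD24H these values were 0.96, 2.46 and 0.41. Ess2 went the other way, at -1.13 and 0.62.

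Of the 10 genes that separated CD29L CD24H from CD29L CD24L cells, 9 (0.0824% of all genes) were lower in CD29L CD24H cells, many of them T-cell genes. Icos, a T-cell costimulator, differed by -4.10, Il7r, a cytokine receptor of lymphocytes, by -2.51, and Gzmb, a granzyme of cytotoxic cells, by -2.77 on the log2 scale. These 3 were not called without the block (adjusted p = 0.0771 for Icos, 0.803 for Il7r and 0.166 for Gzmb). T-cell markers summed to 6170 to 14952 units on the CD29L CD24L arrays and 1064 to 2338 on the CD29L CD24H arrays, and 5 of the 8 measured markers were called lower, 2 of them without the block. CD29H CD24L arrays summed to 1488 to 2628.

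The normal gland offers a pair of populations to set beside these, with gates that are not the same. Its CD29-high cells were CD24 positive, whereas those of the tumor corner were CD24 low. Tumor minus normal values therefore hold a difference of gate as well. A normal CD24L array of preparation 2 was not used in this fit. CD29H CD24P and CD29P CD24H cells of 2 preparations are the basal and the luminal gate of normal tissue, and 1901 genes (17.4%) differed between them, 948 higher (8.68%) and 953 lower (8.73%) in CD29H CD24P cells. The difference between corners in tumors minus that in normal cells was called in 1153 genes (10.6%), 652 with a higher value in tumors (5.97%) and 501 with a lower one (4.59%). In this fit the tumor difference itself was called in 494 genes (4.53%), 449 of them higher (4.11%). Without the block 293 were called. Leaving out CD29H CD24P or CD29P CD24H of preparation 1 gave 486 and 480, and leaving out those of preparation 2 gave 500 and 491. Tumor and normal arrays also differed in the actin 3'/5' ratio, which was 3.08 to 24.7 on the 4 normal arrays and 49.6 to 77 on the 6 tumor arrays. Its part in these differences was not tested, and tumor and normal arrays share no preparation.

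Myoepithelial genes separated the normal populations and not the tumor corners. Of 11 contractile and myoepithelial genes in this fit all 11 were higher in normal CD29H CD24P cells (median 6.10), whereas 1 was called in the tumors (median 0.71) and 9 had a lower difference in tumors. Without the block these counts were 10, 0 and 5. Krt5, a basal keratin, read 13691 and 13888 units in normal CD29H CD24P cells and 54.9 and 73.7 in CD29P CD24H cells, a difference of 7.17 ± 0.43 (adjusted p = 3.54e-08, and 0.0524 without the block). In tumors the Krt5 difference was -0.58 ± 0.35, which left a contrast of tumor minus normal of -7.76 ± 0.56 (adjusted p = 7.33e-07, and 0.187 without the block). Krt14 gave 6.44 ± 0.32 in normal cells and -0.54 ± 0.26 in tumors. Trp63 differed by 5.35 ± 0.40 in normal cells and by 0.00 ± 0.33 in tumors, and Snai2 by 7.35 ± 0.74 and 1.77 ± 0.61. Tumor minus normal was called with the block for Krt14, Trp63 and Snai2, and not without it (adjusted p = 0.0908, 0.247 and 0.482).

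The fibroblast list behaved the other way. Its median was 0.02 in normal cells, with 3 of 15 called higher, and 3.02 in tumors, with 7 of 15 called higher for tumor minus normal. Without the block 1 was called in normal cells and 2 for tumor minus normal. Both normal populations were gated as CD24 positive or CD24 high. No CD24-low normal cells entered this comparison, so these values do not describe them. Dpt read 144 and 109 units in normal CD29H CD24P cells and 84.1 and 263 in CD29P CD24H cells, far under the 9122 to 31397 of tumor CD29H CD24L cells. Dcn of the same list was bright in both normal populations, at 8948 and 7561 units and at 8428 and 8177. Those values lay above the 543 to 5093 of tumor CD29L CD24H cells. A small normal difference therefore does not mean a low signal. Zeb1 read 91.4 and 31.3 units in normal CD29H CD24P and 105 and 152 in CD29P CD24H cells, a difference of -0.85 ± 0.55 against 2.73 ± 0.45 in tumors (adjusted p of the contrast = 0.00329, and 0.0677 without the block). Some matrix genes were high in CD29H cells of normal tissue as well. Mmp2 differed by 5.16 ± 0.48 there and by 2.94 ± 0.40 in tumors, and Fmod by 6.24 ± 0.67 and 3.82 ± 0.55. Luminal hormone sensing genes were called lower in normal CD29H CD24P cells in 6 of 8 cases (median -3.06), and the tumor minus normal value was called higher in 6. Without the block both counts were 3. Esr1 read 518 and 390 units in normal CD29H CD24P and 13173 and 9273 in CD29P CD24H cells, against 445 to 877 in tumor CD29H CD24L and 62.9 to 383 in tumor CD29L CD24H cells.

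**Figure D5:**
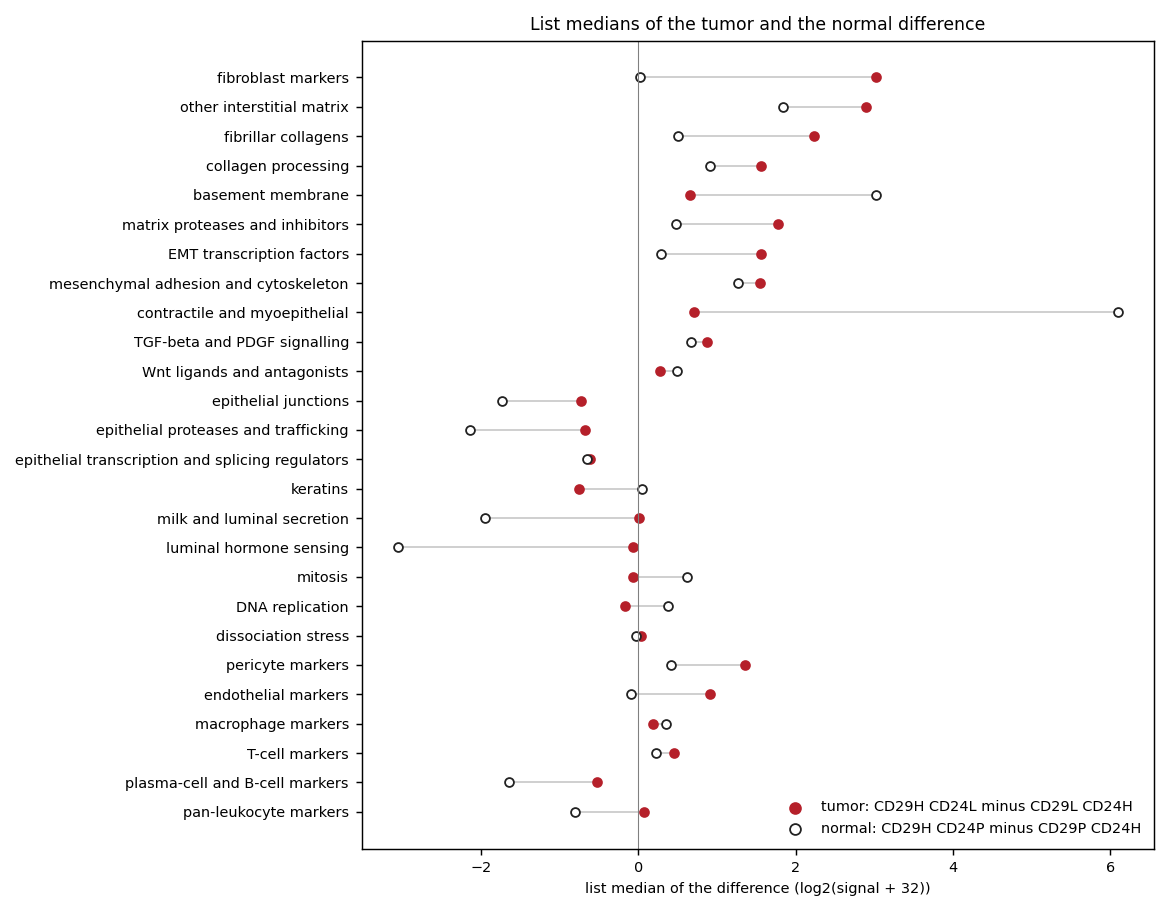
List medians of the tumor difference (red) and of the normal difference (open circles), in log2(signal + 32), joined by a line for each list. Contractile and myoepithelial genes lie at 0.71 in tumors and 6.10 in normal cells, and fibroblast markers at 3.02 and 0.02. No CD24-low normal cells are included.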

How the data were processed

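The study measured RNA of sorted cells on Affymetrix Mouse430_2 arrays; per the labels, RNA was isolated with a PicoPure kit and amplified in 2 cycles with T7 polymerase. The deposited values are intensity values, 1 signal per probe set and array on a linear scale, made by the authors with GCOS (version not given in the sources used here), per the submitters' processing notes. On every array the mean after trimming 2% from each end is 500. Of 45101 probe sets, 34945 carry 1 gene symbol, 932 several and 9160 none, and 64 are controls; only the first kind was named.

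From these values log2(signal + 32) was taken, and the probe set of highest mean stood for each of 18193 genes. The 40% of genes with the lowest means over the tumor arrays (for the contrast with normal cells, over those arrays) were left out. limma 3.58.1 in R 4.3.3 (lmFit, eBayes with trend) fitted 4 population means and the tumor number over 12 arrays. The tumor number pairs the arrays because they come from 1 tumor: deviations from the population means correlated at 0.389 to 0.728 within tumors and at -0.458 to -0.0526 between them. For the contrast with normal cells 16 arrays were fitted, with the preparation number as a block (correlation 0.0647). The labels do not say that a preparation number marks the same animals, so the pairing of normal arrays rests on the number alone. Results without the block stand beside the main counts.

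On simulated data with 200 changed genes among 10916, the fit recovered 16.8%, 54%, 76% and 96.4% of changes of 1, 1.5, 2 and 3 on the log2 scale, and 4.85% of calls were false. The 5 draws used independent normal noise for each gene, of the fitted spread, and as many raised as lowered genes. Genes that vary together were not simulated, and most real calls were higher. These shares therefore need not hold for the real calls. Promoters come from RefSeq. The members, gene lists and tests were chosen with earlier results of these data known. Named genes are Itgb1 and Cd24a, the 15 largest called differences in each direction, up to 4 members of each list, the 5 largest tumor-minus-normal values in each direction and 13 label markers; the following were picked after their values were seen: Acta2, Cldn7, Col1a1, Csf2, Cthrc1, Igf1, Il6, Krt19, Malat1, Mmp10, Mmp13, Ptx3, Snai2, Trp63, Icos, Il7r and Gzmb. Replicates are the 3 tumors; whether normal preparations are separate animals is not stated, so p-values reflect only how far these arrays vary, which may be technical. Alternatives covered the offset, scaling, filter, probe set rule, block, trend and each array left out.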

Additional observations from a re-analysis of the deposited data

Results flagged for a closer look

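The 10 genes below are those whose tumor difference (CD29H CD24L minus CD29L CD24H) departed most from the normal one (CD29H CD24P minus CD29P CD24H), by the test of tumor minus normal in limma. All values are in log2(signal + 32). Il33, an alarm cytokine, had a tumor minus normal value of 8.16 ± 0.53 (adjusted p = 4.27e-07), from 2.97 in tumors and -5.19 in normal cells. Gpx3, a secreted glutathione peroxidase, gave 7.71 ± 1.01, from 3.24 and -4.47. For Itih5, which encodes a heavy chain that binds hyaluronan, the value was 7.25 ± 0.73, from 3.41 and -3.84. Ccbe1, a lymphatic growth regulator, gave 7.10 ± 0.54, from 2.49 and -4.61, and Tnfaip2, a gene induced by TNF, 6.92 ± 0.88, from 1.6 and -5.32. The tumor difference of Tnfaip2 did not itself pass (adjusted p = 0.148 in this fit), while those of the other 4 did (adjusted p = 0.000127 for Il33, 0.0055 for Gpx3, 0.000335 for Itih5 and 0.000342 for Ccbe1). In the other direction stood Krt15, a basal keratin, at -8.42 ± 0.73 (-1.43 in tumors and 6.99 in normal cells), and Serpinb11, a serpin, at -7.82 ± 0.83 (-0.45 and 7.36). Krt5 stood at -7.76 ± 0.56 (-0.58 and 7.17), Moxd1, a monooxygenase family gene, at -7.62 ± 0.55 (-0.32 and 7.30) and Cnn1, calponin of smooth muscle, at -7.54 ± 0.69 (0.15 and 7.69). Without the block Serpinb11, Krt5 and Cnn1 missed the threshold (adjusted p = 0.105, 0.187 and 0.0919). The actin 3'/5' ratio was 3.08 to 24.7 on the normal and 49.6 to 77 on the tumor arrays, and its part in these values was not tested.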

How the results depend on the processing

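The replicate block moved most counts. Without it, 173 genes were called in place of 447, list members fell from 102 to 48, and the tumor minus normal count from 1153 to 293. The comparisons with the intermediate populations gave 237 (CD29H CD24H) and 124 (CD29L CD24L) for CD29H CD24L cells, and 0 and 2 for CD29L CD24H cells. Leaving out 60% of genes by mean signal gave 261 and 735 calls, with fewer genes tested. With 1 array left out, calls ran from 253 to 402 (268 to 305 with 1 tumor left out), list members from 65 to 92 (65 without the CD29L CD24H array of tumor 7), and the tumor minus normal count from 480 to 1094. The other planned settings gave 371 to 616 calls. Without the CD29H CD24H and CD29L CD24L arrays of tumor 2, a setting chosen after seeing the data, 512 were called. Of 125 named genes, those picked after their values were seen included, 82 were called, all 82 kept their direction under every setting run, and 37 also kept their call. By the mean of all probe sets of a gene, dim ones included, the calls of Zeb1, Axl, Esr1, F11r, Malat1, Fancm, Bhlha15 and Smim22 were lost. Uncalled genes near 0 changed sign: Trp63 (0.00 at an offset of 1, 0.03 after quantile normalization, 0.08 after a median shift), and, by the mean of probe sets, Aurka (0.05), Laptm5 (-0.05), Sox10 (0.24) and Top2a (-0.08). With 1 array left out, differences ran from -0.05 to 0.32 for Krt19, -1.16 to 0.03 for Serpinb11, -0.83 to 0.05 for H2-Eb1, -0.07 to 0.78 for Ptprc, -0.35 to 0.46 for Trp63, -0.17 to 0.78 for Twist1 and -0.21 to 0.90 for Laptm5. With 1 tumor left out they ran from -1.22 to 0.17 for Serpinb11, -0.05 to 0.42 for Ptprc, -0.43 to 0.50 for Trp63, -0.02 to 0.74 for Twist1 and -0.20 to 0.75 for Laptm5. The cause of these changes was not tested. An array gives no count of molecules, so dim genes such as Ess2 and Bhlha15 rest on signals near the lowest on the array.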

Other observations

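The following 5 genes of secreted proteins were chosen after their values were seen, so they say nothing of secreted proteins as a class. Il6, an inflammatory cytokine, read 15176, 26625 and 13630 units in CD29H CD24L cells of tumors 1, 2 and 7 and 1289, 5335 and 325 in CD29L CD24H cells, a difference of 3.70 ± 0.52 in log2(signal + 32) (limma adjusted p = 0.000556). Csf2, the growth factor GM-CSF of myeloid cells, read 1347, 2299 and 1251 units against 86.4, 424 and 28.1 (3.44 ± 0.37). Ptx3, a secreted pattern recognition protein, read 7382, 16845 and 6211 units against 733, 1705 and 457 (3.41 ± 0.34). Igf1, insulin-like growth factor, read 3293, 6557 and 2988 units against 230, 1182 and 92 (3.57 ± 0.45), and Cthrc1, a secreted collagen triple helix repeat protein, 5824, 8806 and 8494 against 382, 1134 and 344 (3.75 ± 0.39). For each the lowest CD29H CD24L value lay above the highest CD29L CD24H value. In normal CD29H CD24P cells Il6 read 246 and 277 units, and Igf1 87.5 and 54.1.

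A pair of long nuclear RNAs was called lower, each by 1 of its probe sets. Neat1, the scaffold of paraspeckles, read 755, 1319 and 739 units in CD29H CD24L cells against 2580, 6821 and 3293 in CD29L CD24H cells, and the groups of this probe set did not overlap (-2.06 ± 0.40, adjusted p = 0.0063, and 0.0846 without the block). Malat1, an RNA of nuclear speckles, read 7414, 18568 and 27147 units against 16790, 34371 and 47002 (-0.95 ± 0.24, adjusted p = 0.0393, and 1 without the block). Neat1 had 2 tested probe sets, with differences of -2.06 and -0.62, and Malat1 had 7, from -1.11 to -0.10. Only 1 of each was called. By the mean of its probe sets Malat1 was at -0.76 and not called (adjusted p = 0.264). The Malat1 groups overlapped across tumors, but each tumor had the lower value in CD29H CD24L cells. Malat1 was lower still in CD29H CD24H cells, at 5259, 9145 and 14120 units.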
